A study of Mus musculus with 12 samples.

Results

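Some chromatin stretches carried 1 continuous called peak of the histone variant H2A.Z in wild-type spermatogenic cells but 2 or more in the Ino80 knockout. The interval between the knockout peaks is called bare here only because it holds no called peak. How much H2A.Z remained in it was not measured. Such wild-type H2A.Z peaks are called split here. They were chosen by measured values, as the wild-type peaks that overlapped at least 2 H2A.Z peaks of the knockout by 1 bp each, and they numbered 959 of 33827 wild-type peaks, or 2.84%. A further 22695 wild-type peaks overlapped exactly 1 knockout peak (single-partner peaks) and 10173 overlapped none. The comparison used the 17459 single-partner peaks whose width lay within that of the split peaks, from 353 to 4351 bp.

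The peaks come from chromatin immunoprecipitation and sequencing (ChIP-seq) of cells from the testes of mice on a mixed background, at postnatal day 18, fixed with formaldehyde and with the chromatin cut by micrococcal nuclease. H2A.Z was precipitated from Ino80WT cells, which carry wild-type Ino80, and from Ino80cKO cells, which come from testes where Stra8-Cre had removed Ino80. INO80 itself was precipitated from Ino80WT cells alone, and each of these 3 groups had its own input. Every group had 2 libraries, 12 in all, but only 1 peak list stands for each ChIP group, and the lists hold positions without any height or score. No spread between libraries can therefore be given for any value here. Every test below compares peaks within these 3 lists, and peaks are not replicates of a genotype. Stra8-Cre is active in germ cells, though not at every stage, and a testis of this age also holds somatic cells. The deletion therefore need not be present in every cell of the knockout samples.

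INO80 drives, as its motor subunit, a remodelling complex that slides nucleosomes and can swap H2A.Z out of them. H2A.Z replaces ordinary H2A in the nucleosomes that flank the starts of genes, where the start itself tends to be poor in nucleosomes. In male germ cells the INO80 complex is required for meiosis to proceed.

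The starts of many genes lay in the bare interval. The sequences below are the 200 bases before the start of 6 genes, read 5′ to 3′ on the gene's strand, and they show the DNA between the knockout peaks at promoters described further on. They were chosen after the values were seen and are taken from the RefSeq promoter sequences of build GRCm38.p6, to which mm10 corresponds. Capitals mark the bases that lie between 2 knockout H2A.Z peaks and lower case those outside that interval.
Rpa1 (chr11:75348384-75348583, minus strand) encodes the large subunit of the single-strand DNA binding protein RPA, and 116 of the 200 bases lay in the interval.
Rpa1: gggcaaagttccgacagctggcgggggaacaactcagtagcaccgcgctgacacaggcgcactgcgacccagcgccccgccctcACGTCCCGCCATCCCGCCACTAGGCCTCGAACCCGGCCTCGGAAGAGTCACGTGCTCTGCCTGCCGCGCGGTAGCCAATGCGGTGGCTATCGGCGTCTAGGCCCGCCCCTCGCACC
Smc1b (chr15:85131958-85132157, minus strand) encodes a cohesin subunit of meiotic cells, with 172 bases in the interval.
Smc1b: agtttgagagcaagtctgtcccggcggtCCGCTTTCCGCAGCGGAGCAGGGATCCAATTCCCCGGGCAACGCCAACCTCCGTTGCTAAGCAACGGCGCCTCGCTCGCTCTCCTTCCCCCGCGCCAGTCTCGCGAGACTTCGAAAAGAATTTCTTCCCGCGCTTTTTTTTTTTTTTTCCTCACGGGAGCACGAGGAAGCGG
Sfr1 (chr19:47731556-47731755, plus strand) encodes a partner of SWI5 in homologous recombination, with all 200 bases in the interval.
Sfr1: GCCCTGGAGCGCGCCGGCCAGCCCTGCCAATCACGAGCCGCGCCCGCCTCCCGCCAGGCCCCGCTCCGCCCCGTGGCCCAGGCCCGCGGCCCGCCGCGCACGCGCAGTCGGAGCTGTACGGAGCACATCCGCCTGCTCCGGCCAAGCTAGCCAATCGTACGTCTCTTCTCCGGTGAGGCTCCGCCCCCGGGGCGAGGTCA
Trp53bp1 (chr2:121271408-121271607, minus strand) encodes the DNA break response protein 53BP1, with all 200 bases in the interval.
Trp53bp1: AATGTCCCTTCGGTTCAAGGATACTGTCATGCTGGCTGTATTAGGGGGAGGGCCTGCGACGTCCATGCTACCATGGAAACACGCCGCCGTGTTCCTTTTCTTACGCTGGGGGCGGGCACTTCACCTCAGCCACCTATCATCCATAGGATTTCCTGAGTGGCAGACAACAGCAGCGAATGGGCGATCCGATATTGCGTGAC
Jun (chr4:95052223-95052422, minus strand) encodes a subunit of the transcription factor AP-1, with all 200 bases in the interval.
Jun: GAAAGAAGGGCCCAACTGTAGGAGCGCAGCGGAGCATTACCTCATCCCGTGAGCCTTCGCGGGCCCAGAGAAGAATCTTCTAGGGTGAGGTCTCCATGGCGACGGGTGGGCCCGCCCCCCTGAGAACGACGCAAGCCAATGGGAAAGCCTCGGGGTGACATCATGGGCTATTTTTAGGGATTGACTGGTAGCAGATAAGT
Rpl18 (chr7:45717871-45718070, plus strand) encodes a protein of the large ribosomal subunit, with 166 bases in the interval.
Rpl18: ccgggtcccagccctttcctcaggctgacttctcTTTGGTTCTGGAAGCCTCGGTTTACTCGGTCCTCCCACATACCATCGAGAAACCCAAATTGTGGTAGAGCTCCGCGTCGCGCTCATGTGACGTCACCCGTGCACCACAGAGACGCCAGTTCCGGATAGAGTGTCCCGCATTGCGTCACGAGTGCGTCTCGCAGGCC

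The split was nearly always into 2. Of the 959 split peaks, 940 (98.0%) overlapped 2 knockout peaks, 18 overlapped 3 and 1, at Trip10, overlapped 4. The 1938 knockout peaks in them made up 7.40% of the knockout list. Split peaks were wide, with a median width of 1201 bp and 10% to 90% of them between 796 and 1897 bp, against a median of 604 bp in all single-partner peaks and 231 bp in peaks with no partner. The share of wild-type peaks that were split was higher in wider peaks: 98 of 25303 peaks under 800 bp (0.387%), 381 of 5707 from 800 to 1200 bp (6.68%), 283 of 1987 from 1200 to 1600 bp (14.2%), 120 of 584 from 1600 to 2000 bp (20.5%) and 77 of 246 above that (31.3%). Split and single-partner peaks are therefore tested within 10 width groups, and weighted single-partner values give these groups the proportions of the split peaks. Widths within a group were not matched. Mean width was 1302.2 bp in split and 1268.5 bp in weighted single-partner peaks. The widths and overlaps above are what chose the peaks, so they describe the split peaks and test nothing.

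**Figure D1:**
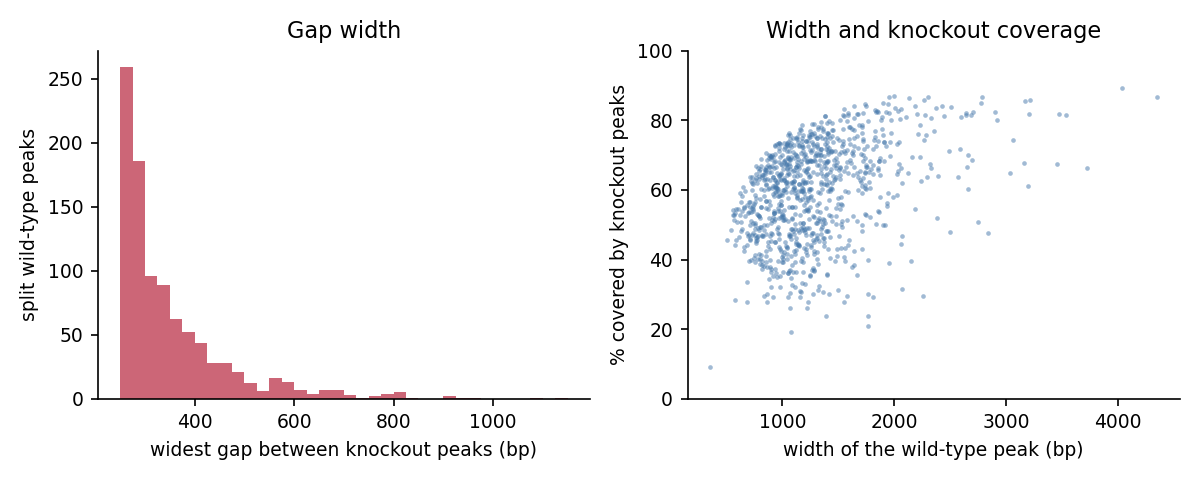
The histogram counts the 959 split wild-type peaks by their widest interval between knockout peaks in bp, and the scatter sets the width of each in bp against the percentage of it covered by knockout H2A.Z peaks. Most intervals lie near the shortest, 251 bp, and coverage runs from 9.07% to 89.3%.

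The bare intervals were short, close to the length of the smallest gap that the lists contain. The 979 intervals between neighbouring knockout peaks had a median length of 308 bp, a 90th percentile of 495 bp and a maximum of 1125 bp. The shortest was 251 bp, which is also the smallest gap between any neighbouring peaks in each of the 3 lists, and 463 intervals (47.3%) fell between 251 and 300 bp. Only 94 split peaks had an interval of 500 bp or more. The interval was usually near the middle: 80% of the centres lay between 32.3% and 69.8% of the width of the wild-type peak, counted from its left end. The pieces on its sides were unequal, with a median of 207 bp for the narrower and 450.5 bp for the wider of a pair. Knockout peaks covered a median of 61.7% of a split peak, from 9.07% to 89.3%. At the threshold of the definition, the least overlapping knockout peak reached under 50 bp into the wild-type peak in 13 split peaks, and 17 single-partner peaks had another knockout peak under 50 bp outside.

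The reverse arrangement was rarer. Of 26199 knockout H2A.Z peaks, 167 (0.637%) overlapped 2 or more wild-type peaks, against 959 wild-type peaks that overlapped 2 or more knockout peaks. The median interval of these 167 was 302 bp and their median width 1126 bp, both near those of the split peaks. INO80 lay on 146 of them (87.4%). No share for all knockout peaks or for knockout peaks as wide is given here, so 87.4% only describes these 167. The knockout list was the shorter and its peaks the narrower, with a median of 422 bp against 460 bp, and the part of this in the different numbers was not tested.

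INO80 was found on most split peaks, at a rate near or below that of single-partner peaks as wide. An INO80 peak overlapped 823 of 959 split peaks (85.8%, Wilson 95% interval 83.5 to 87.9), against 47.2% of all wild-type H2A.Z peaks. In single-partner peaks weighted to the same widths the share was 87.6%. The odds ratio was 0.859 (95% interval 0.702 to 1.05). The adjusted p was 0.154 in a two-sided Cochran-Mantel-Haenszel test over 10 width groups, adjusted over the 6 features tested. No difference was found in this test, and the interval allows from a clearly lower rate to a slightly higher one. With finer control of width the odds ratio was lower. It was 0.813 (95% interval 0.665 to 0.995) in 20 width groups, which missed the threshold after adjustment. In a logistic model it was 0.773 (95% interval 0.630 to 0.949), which passed. In the narrowest width group INO80 was on 66.7% of split and 54.3% of single-partner peaks, and in the fifth group on 83.3% and 91.9%. The direction thus differed between these 2 groups, which the pooled ratio does not show. The narrowest group ran from 353 to 794 bp, with 96 split and 9879 single-partner peaks whose widths were not matched within it. The part of width in its difference was not tested, and in the second group the shares were 77.1% and 75.3%. The pooled ratio turned (odds ratio 1.66) when peaks were also grouped by knockout coverage, which comes from the knockout peaks that chose the split peaks. In the 94 split peaks with an interval of 500 bp or more the odds ratio was 0.194.

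INO80 covered less of split peaks and lay over their midpoints less often. INO80 peaks covered a mean of 61.9% of a split peak, against 69.9% of single-partner peaks weighted to the same widths. The part of this lower coverage in the midpoint result was not tested. The middle base of the wild-type peak was under an INO80 peak in 629 split peaks (65.6%), compared with 79.3% of single-partner peaks weighted to the same widths and 41.6% of all wild-type peaks. The odds ratio was 0.465 (95% interval 0.398 to 0.542, adjusted p = 3.67e-23, same test, n = 959 split peaks). In the narrowest group the shares were 39.6% and 47.3%, in the fifth 60.4% and 81.6%, and in the widest 94.8% and 95.3%. Split peaks were lower in each of the 10 groups, and in the widest the shares nearly met. With peaks also grouped by the share of their width that knockout peaks covered, the odds ratio was 0.768 (adjusted p = 0.0017, n = 959 split peaks). That setting was added after the values were seen. Knockout coverage comes from the knockout peaks that chose the split peaks, with a mean of 59.7% in split and 81.5% in weighted single-partner peaks. The setting is therefore no independent check.

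INO80 was itself more often in 2 pieces on split peaks. Of the 959, 68 (7.09%) carried 2 or more INO80 peaks, against 2.43% of single-partner peaks weighted to the same widths and 0.68% of all wild-type peaks. The odds ratio was 3.22 (95% interval 2.36 to 4.37, adjusted p = 2.82e-15, same test, n = 959 split peaks). In 62 of the 68 (91.2%) the gap between INO80 peaks met the gap between knockout H2A.Z peaks by at least 1 bp. Both kinds of gap are at least 251 bp long and lie within 1 wild-type peak. The share that would meet by position alone was not computed, so 91.2% only describes these peaks. At Rpa1, for example, INO80 peaks of 229 and 149 bp lay on the sides of a bare interval of 260 bp, and at Tex14 peaks of 279 and 180 bp lay on the sides of one of 449 bp. The INO80 list comes from wild-type cells, in which the H2A.Z peak at these places was continuous. In the 94 split peaks with an interval of 500 bp or more the odds ratio was 1.56 and did not pass the threshold.

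**Figure D2:**
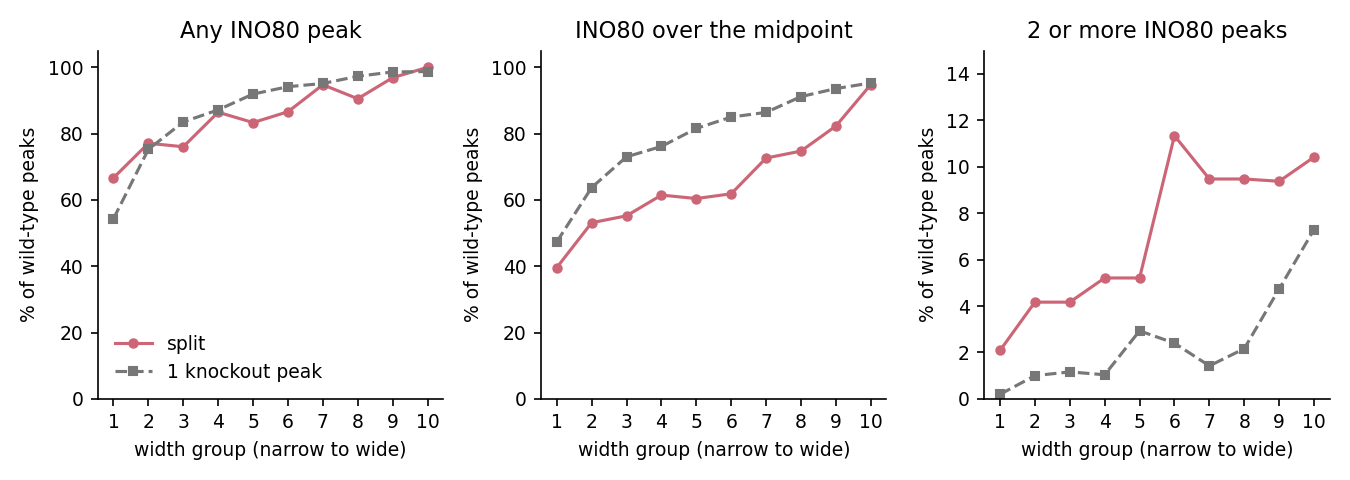
Each panel plots the percentage of split peaks (red circles) and of single-partner peaks (grey squares) in 10 groups from narrow to wide that carry any INO80 peak, an INO80 peak over the midpoint, or 2 or more INO80 peaks. For any INO80 peak the split peaks are higher in the narrowest group (66.7% against 54.3%) and lower in the fifth (83.3% against 91.9%), while for the midpoint they run lower in all 10 (60.4% against 81.6% in the fifth group) and for 2 or more INO80 peaks higher; the panels use different vertical scales.

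Within a split peak, INO80 favoured the wider H2A.Z piece over the bare interval. Among the 940 split peaks with 2 knockout peaks, an INO80 peak lay over the centre of the wider piece in 702 (74.7%), over the centre of the interval in 523 (55.6%) and over the centre of the narrower piece in 514 (54.7%). The wider piece alone was covered in 214 and the interval alone in 35, a difference of −19.0 percentage points at the interval (exact McNemar test, two-sided, p = 1.53e-32). Between the interval and the narrower piece no difference was found, with 90 covered at the interval alone and 81 at the narrower piece alone (exact McNemar test, p = 0.541). So INO80 was not missing from the intervals: of the 823 split peaks with INO80, 538 (65.4%) had it over the centre of the interval that the knockout leaves without a called peak. In the 90 split peaks with an interval of 500 bp or more, the interval centre was covered in 67.8% and the wider piece in 76.7% (exact McNemar test, p = 0.0574).

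Gene starts fell in the bare intervals far more than in the H2A.Z pieces. Starts here are those of protein-coding genes in the RefSeq promoter table, which has no entries for chromosome 18, so the 37 split peaks there were left out. A split peak held a start in 578 of 922 cases (62.7%), against 23.7% of all wild-type peaks and 59.7% of single-partner peaks weighted to the same widths (odds ratio 1.16, 95% interval 1.01 to 1.35, n = 922 split peaks, adjusted p = 0.0519 by the Cochran-Mantel-Haenszel test, which misses the threshold of 0.05). Split peaks thus held a start little more often than other wide H2A.Z peaks. For intervals of 500 bp or more the odds ratio turned to 0.648. Inside them, however, 470 of 766 starts (61.4%) lay in the intervals, which made up 27.6% of the length. That is 1.42 starts per kb in the intervals, 0.370 in the knockout pieces, 0.170 in the outer remainder and 0.637 over whole split peaks. Starts also lay near the middle of these peaks whatever the interval: 60.7% of the split peaks with a start had one within 150 bp of the midpoint, against 51.0% of single-partner peaks weighted to the same widths. Within 154 bp of a centre, the density was 1.52 per kb at the interval centre, 1.44 at the midpoint of the split peaks and 1.09 at the midpoint of single-partner peaks weighted to the same widths. In the 167 knockout peaks that spanned 2 or more wild-type peaks, the intervals held 1.03 starts per kb and the remainder 0.351.

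**Figure D3:**
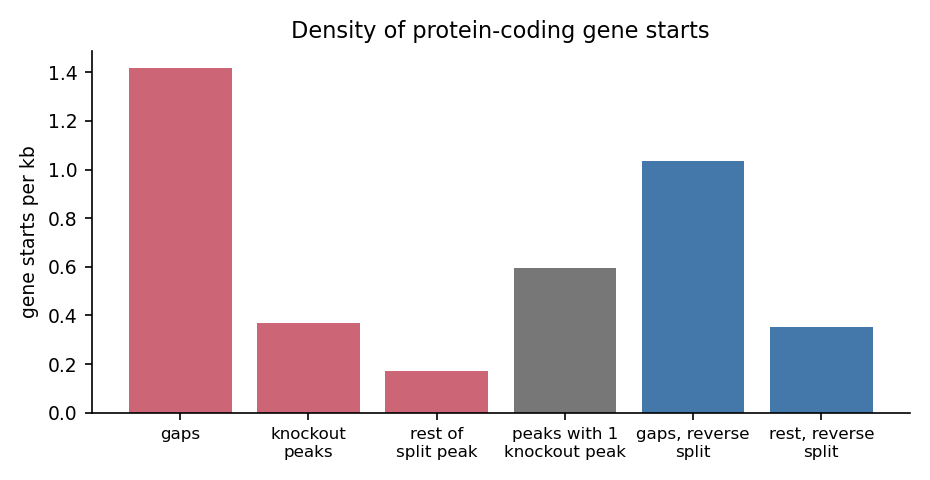
Bars give protein-coding gene starts per kb in the intervals (gaps), knockout peaks and remainder of split peaks, in single-partner peaks weighted to the same widths, and, under reverse split, in the intervals and remainder of the 167 knockout peaks that overlap 2 or more wild-type peaks. The intervals of split peaks stand highest, at 1.42 per kb against 0.595 in single-partner peaks.

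Pairs of neighbouring genes were frequent. Of the 922 split peaks, 88 (9.54%) held the starts of 2 or more genes, against 4.18% of single-partner peaks weighted to the same widths and 1.51% of all wild-type peaks (odds ratio 2.47, 95% interval 1.92 to 3.17, n = 922 split peaks, adjusted p = 2.48e-13, Cochran-Mantel-Haenszel test). The difference was uneven over the width groups. Split and single-partner shares were 12.1% and 0.868% in the narrowest group, whose widths were not matched, and 6.45% and 5.53% in group 5. Only in group 6 were split peaks lower, with 4.30% and 5.38%. Starts on both strands were present in 87 of the 578 split peaks with a start (15.1%), compared with 6.61% in the weighted single-partner peaks. In 80 of the 87 the genes pointed away from each other, with a median of 165 bp between their starts, and in 81 at least 1 start lay in a bare interval. With intervals of 500 bp or more the odds ratio for 2 or more starts was 1.38 and did not pass the threshold. Smc1b and Ribc2 were such a pair, as were Rpa1 and Smyd4, Rpl18 and Sphk2, Uchl5 and Ro60, and Mbtd1 and Utp18. Uchl5 encodes a deubiquitinase found in the INO80 complex and the proteasome. The X chromosome held 9 split peaks (0.938%, against 0.906% of weighted single-partner peaks and 1.54% of all wild-type peaks), and no difference was found (odds ratio 1.05, 95% interval 0.528 to 2.08, n = 959 split peaks, adjusted p = 0.891, same test).

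By position, 395 split peaks (41.2% of 959) had a gene start in a bare interval, 169 (17.6%) had one under a knockout peak and none in an interval, and 14 had one elsewhere in the peak. A further 241 (25.1%) lay over a protein-coding gene away from any start and 103 (10.7%) outside such genes. INO80 was on 92.7% of the split peaks with a start in the interval, on 95.9% of those with a start under a knockout peak and on all 14 with a start elsewhere in the peak. It was on 82.2% of those within genes away from a start and on 49.5% of those outside genes. No shares by position are given here for other wild-type peaks, so whether this order is particular to split peaks was not tested. Over the interval centre itself, INO80 was less frequent where the start lay in the interval (54.2%) than where it lay under a knockout peak (68.6%), a difference that was not tested.

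Where a start lay in the bare interval, the interval centre was mostly upstream of it and the wider H2A.Z piece mostly downstream. This was measured in the 307 split peaks with 2 knockout peaks and starts on 1 strand only, at least 1 of them in the interval. The closeness of interval and start is therefore part of the choice, and only the side is a result. The interval centre lay upstream of the start in 238 (77.5%), and its median position was −60 bp from the start. The downstream piece was the wider in 204 (66.4%), with medians of 371 bp downstream and 261 bp upstream. INO80 covered the centre of the downstream piece in 251 (81.8%) and of the upstream piece in 137 (44.6%), downstream alone in 128 and upstream alone in 14 (exact McNemar test, two-sided, p = 3.22e-24). The order held where the widths of the pieces were within 1.5 times of each other (126 split peaks, 79.4% against 50%, exact McNemar p = 5.73e-08) and where the upstream piece was the wider (103, 75.7% against 63.1%, exact McNemar p = 0.041).

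Single-partner peaks also had INO80 more often downstream than upstream of the start, and their INO80 shares differed from those of split peaks at the start and beyond it. Whether the slant itself differed was not tested. Among peaks with starts on 1 strand, 491 split and 6296 single-partner, INO80 lay over the base 300 bp upstream of the start in 54.8% and, in single-partner peaks weighted to the same widths, 57.2% (odds ratio 0.886, 95% interval 0.723 to 1.09, n = 491 split peaks, adjusted p = 0.236). At the start it lay over 70.3% and 81.7% (odds ratio 0.492, 95% interval 0.394 to 0.615, n = 491 split peaks, adjusted p = 5.2e-10). At 300 bp downstream it lay over 79.0% and 84.7% (odds ratio 0.660, 95% interval 0.518 to 0.842, n = 491 split peaks, adjusted p = 0.000933). All 3 are Cochran-Mantel-Haenszel tests over the width groups, chosen after the values of the other tests were known and adjusted over the 3 positions. Knockout H2A.Z covered the start in 34.2% of the split and 91.3% of the weighted single-partner peaks, a difference that the definition of a split makes.

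**Figure D4:**
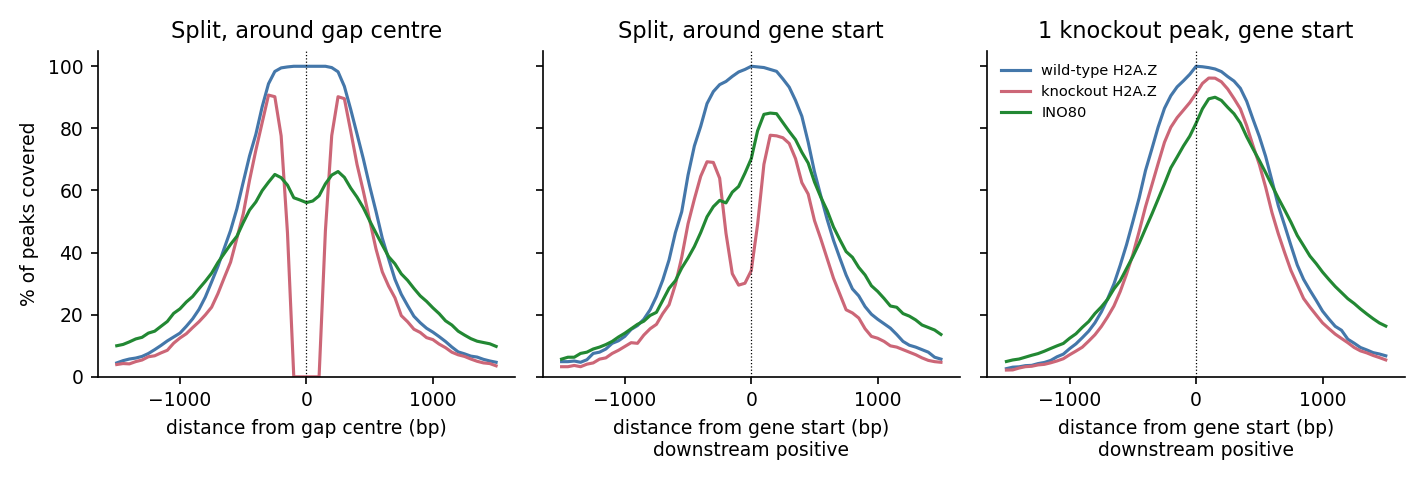
The curves give the percentage of peaks in which each base is covered by a called peak of wild-type H2A.Z (blue), knockout H2A.Z (red) or INO80 (green), by distance in bp from the interval centre of split peaks, from the gene start in 491 split peaks, and from the gene start in 6296 single-partner peaks weighted to the same widths, downstream being positive. At the gene start knockout H2A.Z covers 34.2% of split and 91.3% of single-partner peaks, and INO80 is higher downstream than upstream in both.

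The promoters in the intervals were rich in CpG dinucleotides, as were those elsewhere in split peaks and in single-partner peaks, and held several short motifs more often. These shares are not weighted for peak width and were not tested. In the 300 bases around each of the 470 starts in intervals (250 before and 50 after), the median ratio of observed to expected CpG was 0.861. The ratio was 0.813 for 295 starts in split peaks outside the intervals, 0.779 for 8083 starts in single-partner peaks and 0.567 for all 21238 promoters. The share of promoters that reached a ratio of 0.6 was 91.3%, 83.4%, 78.3% and 47.7% in the same order. Median GC content was 64.7%, 67.0%, 64.0% and 56.3% in the same order, so GC content did not follow the order of the CpG ratio. Motifs were searched on both strands, and a match counts letters only. The CCAAT box, CCAAT, was in 50.2% of the promoters in intervals, 32.5% of the others in split peaks, 31.7% of those in single-partner peaks and 38.2% of all promoters. The cyclic AMP response core TGACGT was in 18.5%, 7.12%, 10.4% and 8.48%, and the YY1 core AANATGGC in 13.0%, 5.08%, 6.50% and 6.36%. The ETS core TTCCGG followed with 36.2%, 17.6%, 28.0% and 18.7%. YY1 is a DNA binding protein that associates with the INO80 complex. GGGCGG, the GC box, was about as frequent in the intervals (76.8%) as in the other promoters of split peaks (81.0%), and the TATA box letters TATAAA were in 3.83%, 5.08%, 4.65% and 12.6%, so low shares were common to the promoters in H2A.Z peaks that overlapped a knockout peak. Genes on both strands of an interval give overlapping promoter windows, so these promoters are not independent of each other.

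In the printed sequences the CCAAT letters begin 42 bases before the start of Rpa1, 147 before that of Smc1b, 174 and 50 before that of Sfr1 and 65 before that of Jun, all among the capitals. TGACGT begins 79 bases before the start of Rpl18, also in capitals. None of the 6 letter sets other than GGGCGG was found in the 200 bases of Trp53bp1, where GGGCGG begins 91 bases before the start.

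Split peaks reached the starts of 665 of the 17492 protein-coding genes with an entry (3.8%). Another 7155 genes had a start in single-partner peaks, 238 in unpartnered peaks and 9434 in no wild-type H2A.Z peak. Of 10 gene lists, DNA damage response genes had 4 of 27 members in split peaks (Fanca, Hus1, Rpa1 and Trp53bp1) and developmental transcription factors 6 of 47 (Dlx2, Emx2, Hoxb1, Neurog1, Nkx6-1 and Sox2). Genes for INO80 and SRCAP complexes and H2A.Z handling had 2 of 25 (Mbtd1 and Uchl5), and meiotic recombination and synapsis genes 2 of 39 (Sfr1 and Smc1b). The list of ribosomal protein genes, which holds only part of that family, had 1 of 33 (Rpl18). Rpl26, Rpl31 and Rpl36al, which are not on the list, also had a start in an interval. Genes of piRNA and germline RNA had 1 of 20, spermatogonial genes 1 of 20 (Foxo1) and spermatid genes 1 of 24 (Tssk6). Polycomb complex genes had 0 of 30, of which 19 started in single-partner peaks only. Markers of Sertoli, Leydig, peritubular and macrophage cells had 0 of 18, of which 5 started in single-partner peaks only. The lists are small, so 1 gene moves a share by several percent, and they describe the split peaks with no test.

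At all 6 genes of the DNA damage and meiotic lists with a split peak, the start lay in the interval. The same held for 395 of the 578 split peaks with a start. Their split peaks were from 655 bp (Smc1b) to 1220 bp (Hus1) wide at these 6 genes. At Trp53bp1 a wild-type peak of 1031 bp faced knockout peaks of 356 and 373 bp, 253 bp apart, and an INO80 peak of 563 bp lay on the downstream side. Rpa1 had a wild-type peak of 1007 bp and knockout peaks of 239 and 427 bp, 260 bp apart. At Hus1, whose product is part of the 9-1-1 checkpoint clamp, the wild-type peak of 1220 bp was crossed by an interval of 382 bp between knockout peaks of 482 and 279 bp. A knockout H2A.Z peak on each side of an interval is part of the definition of a split, so this layout is not particular to these 3 genes. Sfr1 had a wild-type peak of 1005 bp, knockout peaks of 658 and 223 bp and an interval of 350 bp, all under 1 INO80 peak. At Smc1b a wild-type peak of 655 bp faced knockout peaks of 166 and 312 bp that lay partly outside it, 376 bp apart, and the INO80 peak of 147 bp lay within the interval, downstream of the start. Tex14, needed for the bridges between germ cells, had its start under a knockout peak, beside an interval of 449 bp.

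**Figure D5:**
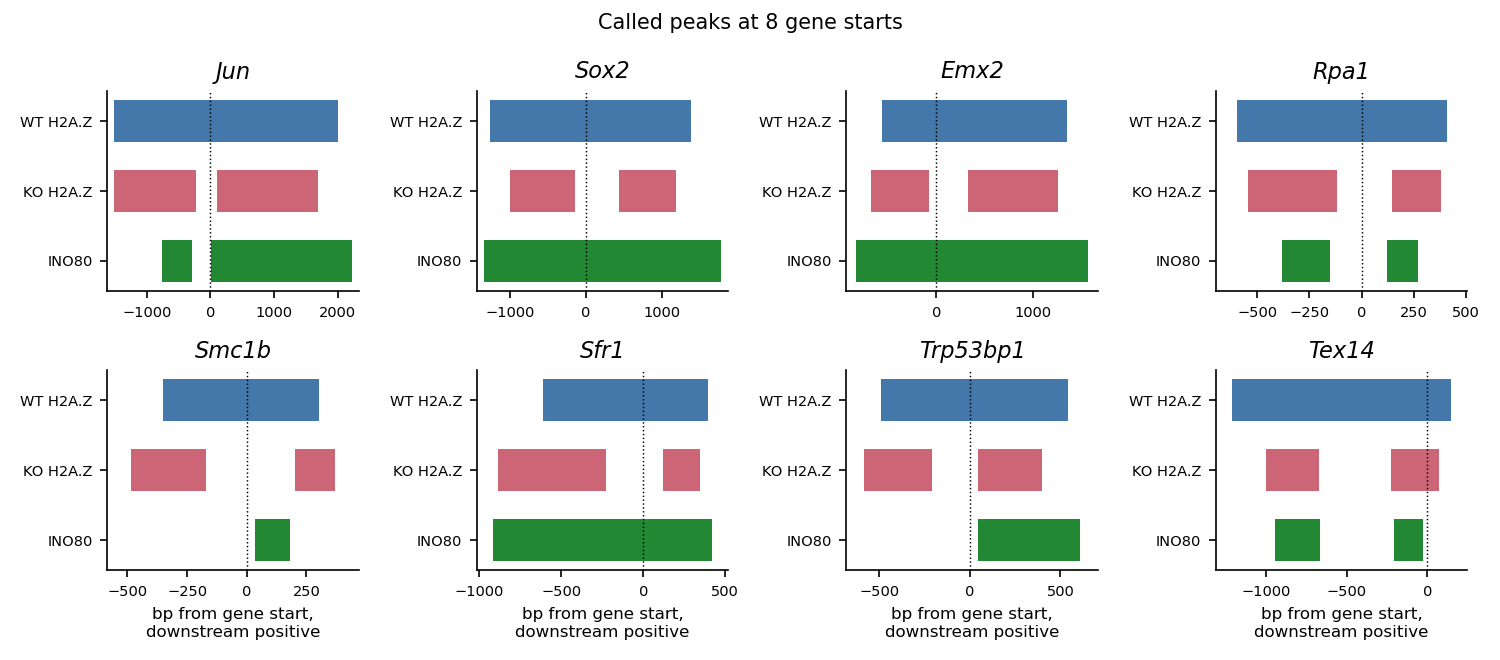
Bars show the called peaks of wild-type H2A.Z (WT, blue), knockout H2A.Z (KO, red) and INO80 (green) at 8 named genes, by distance in bp from the gene start (dotted line), downstream to the right. The start lies between knockout peaks at 7 of the genes and under one at Tex14, and the scale differs between panels.

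In 7 of the 8 named genes with the widest split peaks, the start lay under a knockout peak and not in an interval. Efna5, which encodes an ephrin ligand, had the widest, 4351 bp, with knockout peaks of 2756, 399 and 702 bp. Cdk6, a cyclin-dependent kinase of the G1 phase, had 4031 bp with knockout peaks of 2409 and 1322 bp. Foxo3, a forkhead transcription factor, had 3723 bp with knockout peaks of 770, 933 and 768 bp. The others with a start under a knockout peak were Pcdh7 (3475 bp), Hivep2 (3205 bp), Sfmbt2 (3196 bp) and Arid1b (3166 bp). Jun was the exception among the 8 widest: its start lay in an interval of 322 bp in a peak of 3531 bp, between knockout peaks of 1583 and 1301 bp, and neither of its INO80 peaks, of 2225 and 470 bp, lay over the interval centre. Sox2 and Emx2, transcription factors of embryonic development, had starts in intervals of 576 and 402 bp within peaks of 2654 and 1911 bp, each under 1 INO80 peak.

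The longest interval, 1125 bp, was at the divergent genes Btf3l4 and Txndc12, where a wild-type peak of 1810 bp faced knockout peaks of 371 and 158 bp and INO80 lay in 2 peaks of 496 and 149 bp. Nab2, a corepressor of EGR transcription factors, followed with 1095 bp, then Cdk13, a kinase that acts on RNA polymerase II, with 974 bp, Sox21 with 931 bp and Neurl4 with 919 bp. The only wild-type peak in 4 pieces, at Trip10, was 2833 bp wide and faced knockout peaks of 232, 176, 607 and 340 bp. At Tssk6, a kinase of spermatids, the interval measured 817 bp. Foxo1, a transcription factor of spermatogonia, had a peak of 2570 bp over 3 knockout peaks. The genes named were picked by width, interval, number of pieces or list, so these sizes describe them only.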

How the data were processed

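The 3 peak lists were analysed as the authors deposited them, with chromosome, start and end of each peak and no score, count or other measure, so the only quantities are positions in bp. Per the submitters' processing notes the tools were Bowtie2, SAMtools, deepTools and MACS2 and the build was mm10. Versions, roles, the peak threshold, the control and how both libraries of a group became 1 list: not given in the sources used here. Depth is unknown, so no precision follows from it.

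Overlap meant at least 1 bp. Split and single-partner peaks were compared by two-sided Cochran-Mantel-Haenszel tests over 10 width groups cut at the deciles of the split peaks' widths, with Robins-Breslow-Greenland 95% intervals and Benjamini-Hochberg adjustment over 6 features (threshold 0.05). Weighted shares of single-partner peaks give each width group the weight it has among split peaks. Positions within a split peak were compared by exact McNemar tests. Wilson intervals cover counting error only.

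Gene starts came from the RefSeq promoter table of GRCm38.p6, 21263 starts of protein-coding genes, with 17492 of 21887 genes having an entry. The gene lists hold 381 entries, of which 4 matched no gene; 371 distinct genes matched, and 94 matches had no promoter entry. The genes named are the 8 with the widest split peak, the 6 with the widest interval and the 6 with the most knockout peaks. Up to 3 per gene list were added, and predicted genes were left out. Fanca, Dlx2, Hoxb1, Neurog1, Rpl26, Rpl31, Rpl36al and the divergent partners were named after their values were seen. The members, lists and tests were chosen with earlier results of these data known. Alternatives were logistic models, stricter overlaps and widths, other strata and other positions. The tests used scipy 1.17.1 and statsmodels 0.14.6 under Python 3.11.15 (pandas 2.3.3, numpy 2.4.6), figures used matplotlib 3.10.9, and the tests were tested on simulated data.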

Additional observations from a re-analysis of the deposited data

How the results depend on the processing

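No paired analysis was possible because each list stands for 2 libraries and gives no value per library; for the same reason leaving out a replicate was not run, and no value here has a check between libraries. A peak is present or absent by a threshold that is not known, and no interval shorter than the smallest gap in the lists appears as a split. Settings that group by gene ends, gap centre, knockout coverage, gene context or upstream and downstream pieces were added after the values were seen. Gap centre and knockout coverage come from the knockout peaks that chose the split peaks, so these settings are no independent check.

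For any INO80 peak, the odds ratio of 0.859 passed the threshold, in the same direction, with a logistic model (0.773), with at least 50% of each knockout peak inside (0.755), with intervals of at least 500 bp (0.194), with gene start as a stratum (0.740) and with INO80 over at least 50% of the peak (0.584). It reversed with knockout coverage as a stratum (1.66). The cause was not tested. For INO80 over the midpoint, 10 of 10 alternatives kept direction and call, from 0.302 to 0.768. Among these, the gap centre (0.302) and knockout coverage (0.768) settings rest on the knockout peaks that chose the split peaks. The other settings ran from 0.302 to 0.466.

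With intervals of at least 500 bp, which leaves fewer split peaks, the odds ratio for 2 or more INO80 peaks was 1.56 and for 2 or more gene starts 1.38, both no longer past the threshold, and that for a gene start reversed to 0.648. A gene start passed the threshold with INO80 as a stratum (1.22), with either gene end (1.53) and with knockout coverage as a stratum (1.52). In the 7 settings that kept near the main value, from 1.10 to 1.18, it missed the threshold. Among these were the finer controls of width, 20 width groups (1.12) and a logistic model (1.10). The difference in INO80 between interval and wider piece was −8.89 percentage points with intervals of at least 500 bp and lost its call. Against the narrower piece it was −0.885 points in split peaks without a gene start, the reverse of the main sign, and neither passed the test. The number of split peaks was 425 when peaks under 250 bp were left out of both lists and 167 in the reverse direction. The X chromosome gave no value with intervals of at least 500 bp or without peaks under 250 bp, as no split peak lay on it. The cause of these changes was not tested.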
